A study of Mus musculus with 26 samples.

Results

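Nanog, Esrrb, Tfcp2l1, Tbx3, Klf2, Klf4, Klf5, Nr5a2, Nr0b1 and Zfp42 encode transcription factors of naive pluripotency, the state of the early epiblast that mouse embryonic stem cells (mESCs) keep in culture. They were taken by name, 10 of the 24015 genes with deposited RNA-seq values, and their levels were followed across 15 libraries of 7 conditions. All 10 passed the filter on low values (1 RPKM or more in 2 or more libraries), as did 13477 genes in all. RPKM counts reads relative to the length of a gene and to library depth, so that levels can be set side by side between genes.

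Every library came from mESCs that carry the Stella:GFP reporter. Wild-type (wt) cells gave 1 library in serum+LIF and 2 in 2i+LIF, a serum-free medium with the MEK inhibitor PD0325901 and the GSK3β inhibitor CHIR99021. All other lines, like the wt serum+LIF cells, were kept for 5 days in serum and the cytokine LIF without feeder cells. The Prdm14-/- group held 2 knockout clones, G6 and F10, and the Mtgr1-/- group held 3, named A3, C1 and C3, each clone made with CRISPR and each giving 1 library. FH-Prdm14 lines (2 libraries) were the Prdm14-/- clones given a FLAG-HA-tagged Prdm14, and E294K lines (2) were the same clones given Prdm14 with a substitution that weakens its contact with Mtgr1. FH-Mtgr1 lines (3) were the Mtgr1-/- clones given tagged Mtgr1, a corepressor of the ETO family that is encoded by Cbfa2t2 and binds Prdm14. A line is 1 clone and a condition holds at most 3 of them. The study describes its replicates as biologically independent, and within a knockout or rescue group they are different clones. The test pools the spread between libraries over all conditions. The p-values therefore rest on the lines compared and on the others, with the 2 wt 2i+LIF libraries, which are not clones, among them.

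Naive factors form a densely connected network. LIF acts through Stat3 on Klf4 and Tfcp2l1, inhibition of GSK3 lifts the repression that Tcf7l1 places on Esrrb and its partners, and inhibition of MEK favours Nanog and Klf2. Klf2, Klf4 and Klf5 are related zinc finger proteins that bind the same GC-rich sites and stand in for each other, Nr5a2 and Nr0b1 are nuclear receptors that act near Pou5f1, and Zfp42 (Rex1) is widely used as a marker of the state. Prdm14 is known to shield this network from FGF signalling.

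The promoters of the members were searched because the genes moved together in several comparisons. RefSeq promoters (GRCm38.p6) of 300 bases around the transcription start were at hand for 8 of the 10 genes, in 11 windows. Klf5 and Tbx3 were the others. On both strands 4 sets of letters were searched: GGTCTCTAA for Prdm14, TCAAGGTCA for Esrrb, GGGNGTGG for the Klf factors and TTCCNGGAA for Stat3. Only the Klf letters were found, in windows of 4 members (Nanog, Tfcp2l1, Zfp42 and Nr5a2). Among 32851 mouse promoters of the same length, 17.6% held the Klf letters, 1.15% those of Stat3, 0.423% those of Esrrb and 0.256% those of Prdm14. These shares are per promoter, whereas the 4 members are counted per gene. For letters as rare as the last 3, 11 windows of any genes would mostly hold no match. Their absence therefore says nothing about the members. The study places Prdm14 mainly at distal elements, which such windows do not cover. Shown are 3 of the windows with a match, 5′ to 3′ on the strand of the gene, with the Klf letters or their reverse complement in capitals.
Nanog, chr6:122707315-122707614, plus strand: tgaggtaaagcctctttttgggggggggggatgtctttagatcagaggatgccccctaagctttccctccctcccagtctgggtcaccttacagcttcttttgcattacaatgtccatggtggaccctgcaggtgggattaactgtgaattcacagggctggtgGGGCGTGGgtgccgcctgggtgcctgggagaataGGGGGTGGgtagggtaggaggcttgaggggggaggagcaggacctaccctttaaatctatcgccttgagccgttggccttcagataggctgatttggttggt
Tfcp2l1, chr1:118627695-118627994, plus strand: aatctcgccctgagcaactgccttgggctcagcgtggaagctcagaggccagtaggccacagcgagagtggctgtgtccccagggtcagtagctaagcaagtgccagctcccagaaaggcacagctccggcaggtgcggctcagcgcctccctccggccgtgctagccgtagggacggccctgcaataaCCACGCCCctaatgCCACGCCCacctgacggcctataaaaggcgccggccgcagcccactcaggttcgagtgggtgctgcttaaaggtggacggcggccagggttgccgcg
Zfp42, chr8:43306960-43307259, minus strand: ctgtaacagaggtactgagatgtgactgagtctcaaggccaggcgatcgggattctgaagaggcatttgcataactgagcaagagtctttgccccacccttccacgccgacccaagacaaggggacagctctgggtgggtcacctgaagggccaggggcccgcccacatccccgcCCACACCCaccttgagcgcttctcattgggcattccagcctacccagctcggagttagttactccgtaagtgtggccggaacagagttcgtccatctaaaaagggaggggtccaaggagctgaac

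Nanog and Tfcp2l1 each held 2 matches and Zfp42 held 1. Base composition differed widely between the windows. The Klf4 window was 74.3% G and C with 40 CG dinucleotides, that of Klf2 69.3% with 32, and that of Nanog printed above 56.0% with 4. The match describes letters only, since binding was not measured in these libraries.

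In the NCBIM37 (mm9) assembly, to which the authors aligned, the genes lie on 8 chromosomes. Klf2 (chr8:74842932-74845555, plus strand) and Zfp42 (chr8:44380422-44392363, minus) share chromosome 8, and Tfcp2l1 (chr1:120524522-120581744, plus) and Nr5a2 (chr1:138740161-138857004, minus) share chromosome 1. Nanog lies at chr6:122657507-122664651 (plus), Esrrb at chr12:87702067-87862578 (plus), Tbx3 at chr5:120120678-120134733 (plus), Klf4 at chr4:55540013-55545347 (minus), Klf5 at chr14:99697910-99712624 (plus) and Nr0b1 at chrX:83437103-83441286 (plus). Nanog has processed pseudogenes with which it may share reads. Tbx3 has an antisense neighbour, Tbx3os2, and the use of strand in counting is not given in the sources used here. Tbx3os2 was at 1.69 RPKM or less in every library, against 3.34 RPKM or more for Tbx3.

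The libraries held between 10668572 and 21218414 reads on genes (median 13793727). Prdm14 was at 79.8 and 116 RPKM in the FH-Prdm14 lines and at 89.9 and 105 RPKM in the E294K lines, against 2.77 RPKM in wt serum+LIF and 30.8 and 19.1 RPKM in 2i+LIF. The rescue of Prdm14 is therefore an overexpression. The Prdm14-/- lines still gave 3.60 and 1.96 RPKM, so that the transcript does not mark the knockout. Cbfa2t2 was at 18.0 to 19.9 RPKM in the Mtgr1-/- lines and at 25.5 to 28.0 RPKM in FH-Mtgr1, below the 40.7 RPKM of wt serum+LIF. All 6 markers of embryonic stem cells fixed for the check (Nanog among them) were at 1 RPKM or more in at least 1 library of every condition. In bulk RNA, a lower level in each cell and fewer cells in the naive state cannot be told apart.

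The level of each member varied between conditions more than between libraries of a condition. A moderated F test over the 7 conditions (limma, on log2(RPKM + 0.5), with Benjamini-Hochberg adjustment over all genes) passed for 10 of 10 members, at adjusted p between 4.69e-07 for Esrrb and 0.000661 for Nr0b1. It also passed for 81.9% of all genes tested. Esrrb ranked 42 of 13477 by its F value. The mean was highest in FH-Prdm14 for 8 members and in wt 2i+LIF for Tfcp2l1 and Nr5a2. In no member did these 2 conditions differ past the threshold. The lowest mean belonged to Mtgr1-/- in 8 members and to FH-Mtgr1 in Klf5 and Nr5a2.

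**Figure D1:**
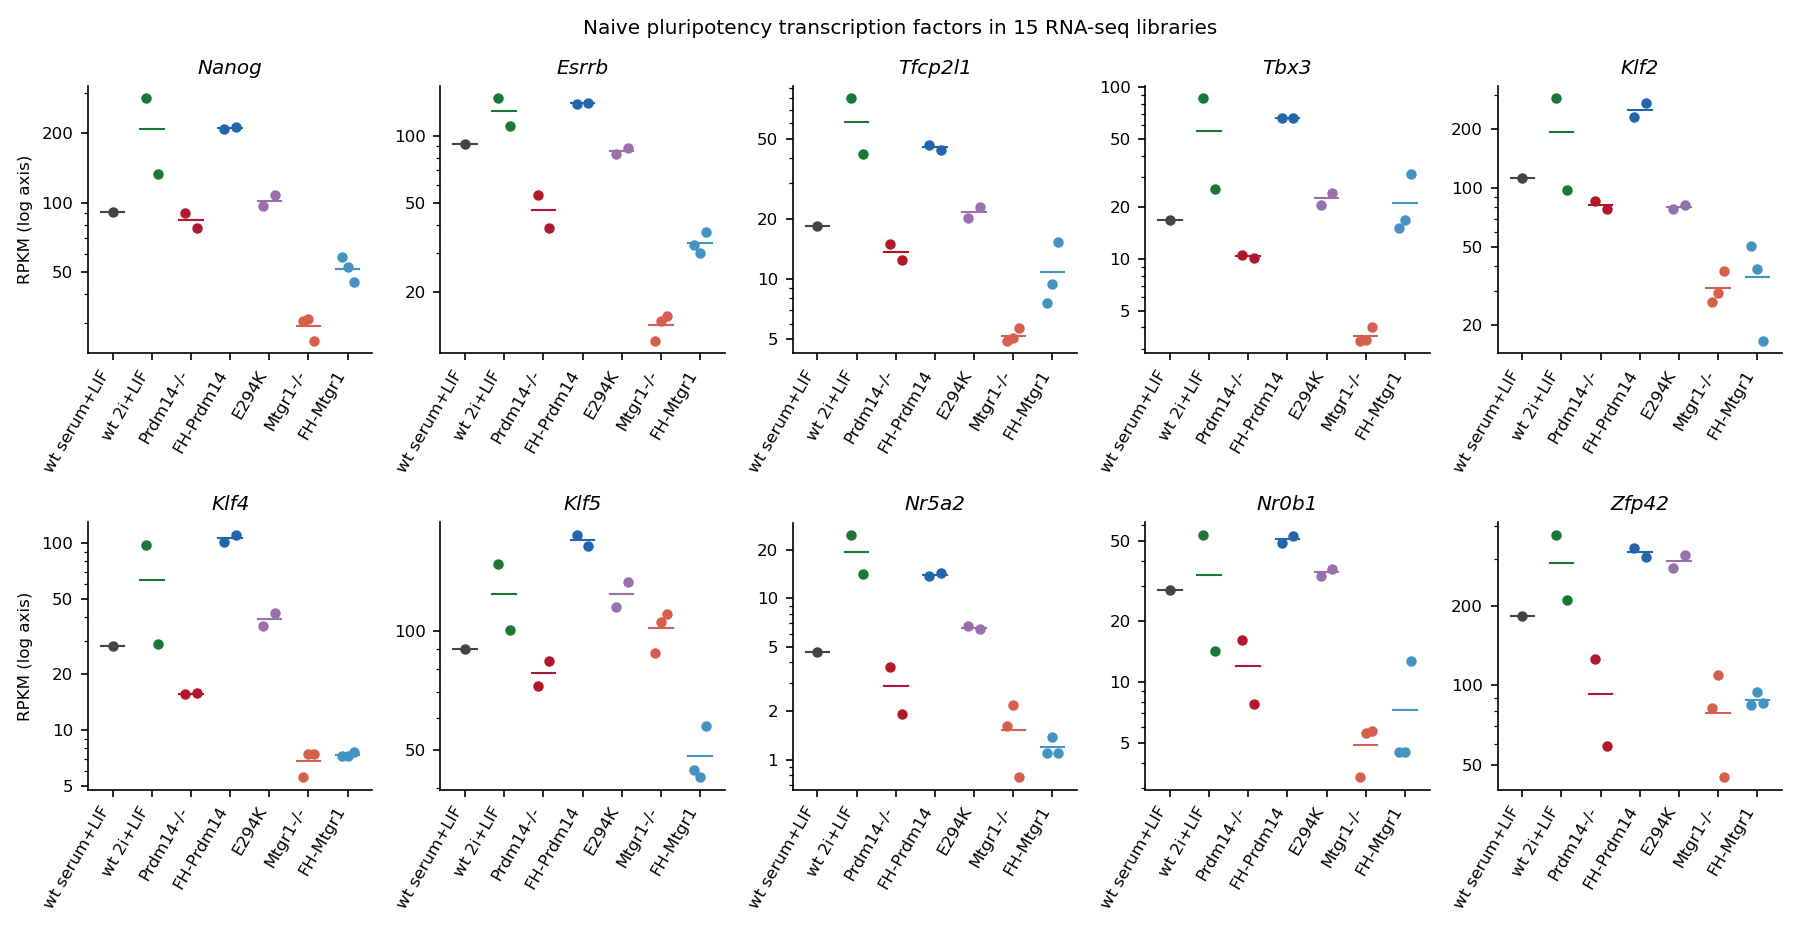
Level of each member in RPKM (log axis, a scale of its own in each panel) against condition. Each point is 1 library and each line the mean of its condition. FH-Prdm14 lies at or near the top of every panel, and Mtgr1-/- at or near the bottom of every panel except that of Klf5, where it lies above FH-Mtgr1.

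Loss of Mtgr1 was compared with the rescue of the same clones. Mtgr1-/- lines had lower Nanog, Esrrb, Tfcp2l1 and Tbx3 than FH-Mtgr1 lines and higher Klf5, with a change between 1.78-fold for Nanog and 5.90-fold for Tbx3. Klf2, Klf4, Nr5a2, Nr0b1 and Zfp42 did not pass the test. The 5 members called (4 lower, 1 higher) stand beside 52.3% of all genes called in this comparison, 26.1% lower and 26.2% higher, so that the share among the members was close to that of all genes. The median log2 difference was -0.32 over the members and -0.01 over all genes tested.

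Esrrb, an orphan nuclear receptor that binds next to Sox2 and Nanog targets, was at 12.1, 14.9 and 15.7 RPKM in Mtgr1-/- lines A3, C1 and C3 and at 32.6, 30.1 and 37.1 RPKM in the rescue of the same clones. Every knockout line lay below every rescue line, with means of 14.2 ± 1.87 and 33.3 ± 3.55 RPKM (SD, n = 3). The difference was -1.20 ± 0.16 (log2, SE; adjusted p = 6.91e-05). Nanog, a homeodomain factor that sustains self-renewal, was at 30.7, 31.4 and 25.1 RPKM in the knockout and at 57.9, 52.4 and 45.1 RPKM in the rescue. These groups did not overlap either, and the difference was -0.82 ± 0.22 (adjusted p = 0.00757). Tfcp2l1, a target of Stat3, was at 4.92, 5.06 and 5.67 RPKM against 7.61, 9.47 and 15.3 RPKM. The rescue of clone C3 was the highest, and the groups were again apart (-0.93 ± 0.25, adjusted p = 0.00762). Without either C3 library the call on Tfcp2l1 was kept, as it was under all 15 alternatives run.

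Tbx3, a T-box factor that feeds Nanog, changed most. It was at 3.34, 3.39 and 4.01 RPKM in Mtgr1-/- and at 15.2, 17.0 and 31.2 RPKM in FH-Mtgr1, for a difference of -2.34 ± 0.36 (adjusted p = 0.000197). The FH-Mtgr1 lines A3 and C1 lay near the wt serum+LIF level of 16.9 RPKM, and C3 lay above it. Klf5 went the other way. Mtgr1-/- lines had 88.2, 106 and 111 RPKM and FH-Mtgr1 lines 44.3, 42.5 and 57.4 RPKM, a difference of 1.08 ± 0.16 (adjusted p = 0.0002) with no overlap. The wt serum+LIF library, at 90.1 RPKM, was among the Mtgr1-/- lines and above the rescue lines. All 5 called members had groups that did not overlap, which was so for 31.1% of genes with the knockout lower and 31.1% with it higher.

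Among the members that did not pass, Klf4 was flat across these 6 libraries. It was at 5.57, 7.43 and 7.42 RPKM in the knockout and at 7.24, 7.26 and 7.61 RPKM in the rescue (-0.12 ± 0.31, adjusted p = 0.773), while wt serum+LIF had 28.0 RPKM. Nr5a2, at 1.62, 2.19 and 0.778 RPKM in the knockout and 1.11, 1.38 and 1.10 RPKM in the rescue, was likewise under the wt level of 4.62 RPKM in both groups. Klf2 was at 26.2, 29.3 and 37.7 RPKM in the knockout and at 50.7, 38.7 and 16.6 RPKM in the rescue, where C3 lay under all knockout lines. Nr0b1, a corepressor of nuclear receptors on the X chromosome, was at 3.38, 5.58 and 5.71 RPKM against 4.53, 4.52 and 12.7 RPKM, with C3 again apart from its fellow rescue lines. Zfp42 was at 82.0, 109 and 44.8 RPKM in the knockout and 84.5, 94.7 and 85.5 RPKM in the rescue, both under the 184 RPKM of wt serum+LIF.

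Markers of other cells differed between these groups. The summed level of 5 trophoblast markers was 59.6 to 66.0 RPKM in Mtgr1-/-, where 4 of the 5 were at 1 RPKM or more, and 6.55 to 9.23 RPKM in FH-Mtgr1, where 2 were. All 3 of the trophoblast markers tested passed as higher, Plac1 the most (4.0 ± 0.40, adjusted p = 1.31e-05). The sum of 4 neural markers was 52.0 to 58.1 RPKM against 22.6 to 38.7 RPKM, and 1 of the 3 tested passed, Nes (1.12 ± 0.25, adjusted p = 0.00225). The 6 markers of extraembryonic endoderm went the other way, with a sum of 7.23 to 10.5 RPKM in Mtgr1-/-, where 3 were at 1 RPKM or more, and of 12.1 to 18.3 RPKM in FH-Mtgr1, where 5 were. Of the 5 tested, 3 passed as lower, Gata4 the most (-1.75 ± 0.32, adjusted p = 0.00065). In wt serum+LIF the sums were 9.92 RPKM for trophoblast, 18.2 RPKM for neural and 7.08 RPKM for endoderm markers. Against that single library no endoderm marker passed as lower in Mtgr1-/-, and Dab2 passed as higher (1.48 ± 0.27, adjusted p = 0.00146). The counts at 1 RPKM or more hold for at least 1 library of a group. None of these markers was at 0 in every library of Mtgr1-/- or of FH-Mtgr1, and their part in the differences of the members was not tested. Tcf7l1, the repressor of several members, was at 52.8 to 74.0 RPKM in Mtgr1-/- and at 21.4 to 25.4 RPKM in FH-Mtgr1. It belongs to a list of genes that feed the network, read below, and its part was not tested either.

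In Prdm14-/- lines every member was lower than in the overexpressing rescue of the same clones. The change ran from 2.18-fold for Klf5 to 6.76-fold for Klf4. All 10 passed the test as lower, where 13.8% of all genes did (25.2% in either direction), and in all 10 both knockout lines lay under both rescue lines, which was so for 40.4% of genes. The median log2 difference was -1.79 over the members and -0.09 over all genes tested. The comparison measures the distance from the knockout to an overexpression and not to the wt level.

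The Klf family gave the widest and the narrowest gap. Klf4 was at 15.6 and 15.8 RPKM in Prdm14-/- clones F10 and G6 and at 101 and 111 RPKM in FH-Prdm14, means of 15.7 ± 0.136 and 106 ± 6.97 RPKM (SD, n = 2). The difference was -2.72 ± 0.38 (log2, SE; adjusted p = 0.000358). Klf5 was at 72.7 and 83.8 RPKM against 176 and 165 RPKM (-1.12 ± 0.20, adjusted p = 0.00169). Klf2 was at 85.9 and 78.3 RPKM against 230 and 273 RPKM (-1.61 ± 0.48, adjusted p = 0.0288). The lines were well apart, yet the call on Klf2 was lost with the clone as a replicate block (adjusted p = 0.0638), with no filter, and without any of the 4 libraries.

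Tbx3 fell by 2.62 ± 0.43 on the log2 scale (adjusted p = 0.00105), from 66.1 and 66.5 RPKM in FH-Prdm14 to 10.6 and 10.1 RPKM in the knockout. Tfcp2l1 was at 14.9 and 12.4 RPKM against 46.6 and 44.1 RPKM (-1.70 ± 0.30, adjusted p = 0.00164). Both pairs of lines were tight compared with the distance between them. Esrrb was at 54.6 and 38.9 RPKM against 139 and 140 RPKM (-1.59 ± 0.19, adjusted p = 0.000138). Nanog was at 90.2 and 77.5 RPKM against 208 and 213 RPKM (-1.33 ± 0.27, adjusted p = 0.00351). For Esrrb and Nanog clone G6 was the lower of the knockout lines.

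The gap between the knockout clones was wider for the nuclear receptors and Zfp42. Nr5a2, which can activate Pou5f1, was at 3.78 RPKM in F10 and 1.92 RPKM in G6, against 13.7 and 14.3 RPKM in the rescue (-2.17 ± 0.35, adjusted p = 0.000884). Nr0b1 was at 16.2 and 7.79 RPKM against 49.0 and 53.1 RPKM (-2.13 ± 0.57, adjusted p = 0.0171). Zfp42 was at 126 and 59.1 RPKM against 332 and 306 RPKM (-1.88 ± 0.40, adjusted p = 0.00461). The calls on Nr0b1 and Zfp42 were lost without the G6 knockout library, and that on Nr0b1 also without either rescue library and with no filter. Over the members, 8 were higher in F10 than in G6, by a median of 0.24 (log2), while over all genes the median was 0.04. The 5 markers of a 2-cell-like state summed to 30.2 and 49.6 RPKM in FH-Prdm14 and to 2.70 and 3.12 RPKM in Prdm14-/-, with 2 of the 5 at 0 in every one of these libraries. The 6 endoderm markers summed to 9.02 and 20.1 RPKM in Prdm14-/- and to 4.11 and 5.37 RPKM in FH-Prdm14, and 2 of the 5 tested passed as higher, Dab2 the most (2.00 ± 0.24, adjusted p = 0.000118). The 4 neural markers summed to 32.3 and 42.2 RPKM against 16.2 and 17.5 RPKM, where Nes was higher (2.37 ± 0.30, adjusted p = 0.000192) and 1 other gene lower. No endoderm or neural marker was at 0 in both lines of a group, and the part of these markers in the result was not tested.

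**Figure D2:**
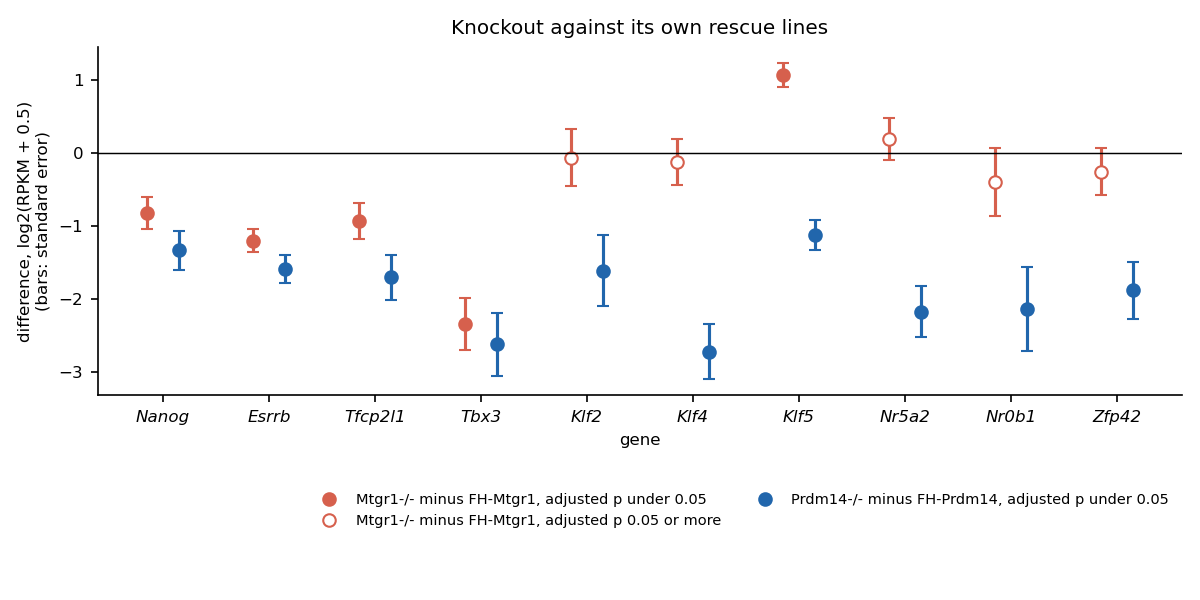
Difference of knockout minus rescue in log2(RPKM + 0.5) for each gene, with its standard error as bars. Red points are Mtgr1 and blue points Prdm14, and open points did not pass an adjusted p of 0.05. All blue points lie under 0, between -1.12 and -2.72. The red points run from -2.34 for Tbx3 to 1.08 for Klf5.

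The effects of the knockouts, each against its own rescue, were then compared directly. The Mtgr1 effect minus the Prdm14 effect was positive for all 10 members and passed the test for 4, where 17.1% of all genes passed as positive and 31.4% in either direction. These were Klf4 (2.60 ± 0.49, adjusted p = 0.00231), Nr5a2 (2.37 ± 0.45, adjusted p = 0.00242), Klf5 (2.20 ± 0.26, adjusted p = 0.000177) and Zfp42 (1.63 ± 0.51, adjusted p = 0.0297). Tbx3 (0.28 ± 0.56), Esrrb (0.39 ± 0.25) and Nanog (0.51 ± 0.35) did not pass, at adjusted p of 0.733, 0.253 and 0.286. Under the 19 alternatives run, the calls on Klf4, Nr5a2 and Klf5 were kept, and that on Zfp42 was kept under 11, being lost without the G6 knockout library among others. The rescues differ in transcript level, with Prdm14 overexpressed and Cbfa2t2 under the single wt serum+LIF library. Mtgr1 protein was not measured in these libraries. A difference of effects therefore cannot be told apart from a difference between the rescues.

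The knockouts were also set against each other without the rescues. Mtgr1-/- lines were lower than Prdm14-/- lines for 6 members, Nanog, Esrrb, Tfcp2l1, Tbx3, Klf2 and Klf4, where 21.1% of all genes were lower and 35.4% differed. Esrrb was 3.29-fold lower (-1.67 ± 0.18, adjusted p = 5.1e-05) and Nanog 2.88-fold lower (-1.51 ± 0.25, adjusted p = 0.00074). Their lines did not overlap. Klf5 (0.37 ± 0.18), Nr5a2 (-0.73 ± 0.32), Nr0b1 (-1.16 ± 0.52) and Zfp42 (-0.22 ± 0.36) did not pass, at adjusted p between 0.0951 and 0.664. Calls on Tbx3, Klf2 and Klf4 were lost when either Prdm14-/- library was left out, or with no filter, those on Klf2 and Klf4 also without Mtgr1-/- line A3, and that on Klf2 without C1. After adjustment for GC content Klf5 passed as higher in Mtgr1-/- (0.77, adjusted p = 0.00181) and Nr5a2 as lower (-0.85, adjusted p = 0.0256), and the call on Klf2 was lost (-0.95, adjusted p = 0.0511).

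The E294K lines carried as much Prdm14 transcript as the FH-Prdm14 lines, and so allow the substitution to be read at a similar level of overexpression. They lay under FH-Prdm14 for Nanog, Esrrb, Tfcp2l1, Tbx3, Klf2 and Klf4, by between 1.63-fold for Esrrb and 3.13-fold for Klf2. These 6 members passed as lower where 13.2% of all genes did (19.5% in either direction), and the median log2 difference was -1.04 over the members against -0.06 over all genes. No member passed when any of the 4 libraries was left out or when the filter was dropped, and 3 (Nanog, Esrrb and Tfcp2l1) passed with the clone as a replicate block.

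Nanog was at 96.5 and 108 RPKM in E294K lines F10 and G6, under the 208 and 213 RPKM of FH-Prdm14 (-1.04 ± 0.27, adjusted p = 0.0179). Klf2 was at 78.3 and 82.4 RPKM, a mean of 80.4 ± 2.90 RPKM (SD, n = 2) that was as low as that of the knockout, 82.1 ± 5.42 RPKM. It differed from FH-Prdm14 by -1.64 ± 0.48 (adjusted p = 0.0327). Klf4 was at 35.9 and 42.3 RPKM (-1.43 ± 0.38, adjusted p = 0.0212), between knockout and rescue. Tbx3 was at 20.7 and 24.4 RPKM (-1.54 ± 0.43, adjusted p = 0.0274), Tfcp2l1 at 20.2 and 22.9 RPKM (-1.06 ± 0.30, adjusted p = 0.029) and Esrrb at 83.1 and 88.1 RPKM (-0.70 ± 0.19, adjusted p = 0.0237). Each pair of lines lay under both FH-Prdm14 lines, as was so for 44.7% of all genes, and above both knockout lines, as was so for 38.0%, save for Klf2, which overlapped the knockout.

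The other members did not pass the test. Zfp42 was at 278 and 313 RPKM in E294K, which overlapped the 332 and 306 RPKM of FH-Prdm14 (-0.11 ± 0.40, adjusted p = 0.872). Nr0b1 was at 33.6 and 36.4 RPKM (-0.54 ± 0.57, adjusted p = 0.535) and Klf5 at 115 and 133 RPKM (-0.46 ± 0.20, adjusted p = 0.13). Their lines lay under those of FH-Prdm14. Nr5a2, at 6.73 and 6.40 RPKM, missed the threshold narrowly (-1.04 ± 0.35, adjusted p = 0.0568), and passed with a pseudocount of 1, in voom and after adjustment for GC content.

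Against the knockout, E294K lines were higher for Esrrb, Klf4, Klf5, Nr5a2, Nr0b1 and Zfp42, the 6 members that passed where 15.1% of all genes were higher and 32.9% differed. Zfp42 was 3.19-fold higher (1.77 ± 0.40, adjusted p = 0.00661), Esrrb 1.83-fold (0.88 ± 0.19, adjusted p = 0.00572), and Klf4 2.50-fold (1.29 ± 0.38, adjusted p = 0.0233). Nr0b1 was at the threshold (1.59 ± 0.57, adjusted p = 0.0496). Nanog (0.28 ± 0.27) and Klf2 (-0.03 ± 0.48) did not pass. In a fit of the compared conditions alone 8 members passed, as did 5294 of all genes, against 4435 with all libraries. With the clone as a replicate block the calls on Klf4 (adjusted p = 0.0560) and Nr0b1 (adjusted p = 0.0628) were lost. No member passed without the G6 knockout library, and 2 passed without either E294K library. On a scale with the knockout mean at 0% and the FH-Prdm14 mean at 100%, the E294K mean lay at -1.79% for Klf2, 21.5% for Nanog, 37.7% for Tfcp2l1, 41.2% for Tbx3, 47.4% for Klf4, 52.2% for Nr5a2, 55.7% for Esrrb, 59.3% for Klf5, 74.7% for Nr0b1 and 94.1% for Zfp42. Read within clones, the place of Nanog was 32.5% in G6 and 8.02% in F10, and that of Zfp42 was 101% and 81.8%, so that G6 stood higher for both. The clones put Klf2 lowest and Zfp42 highest alike.

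**Figure D3:**
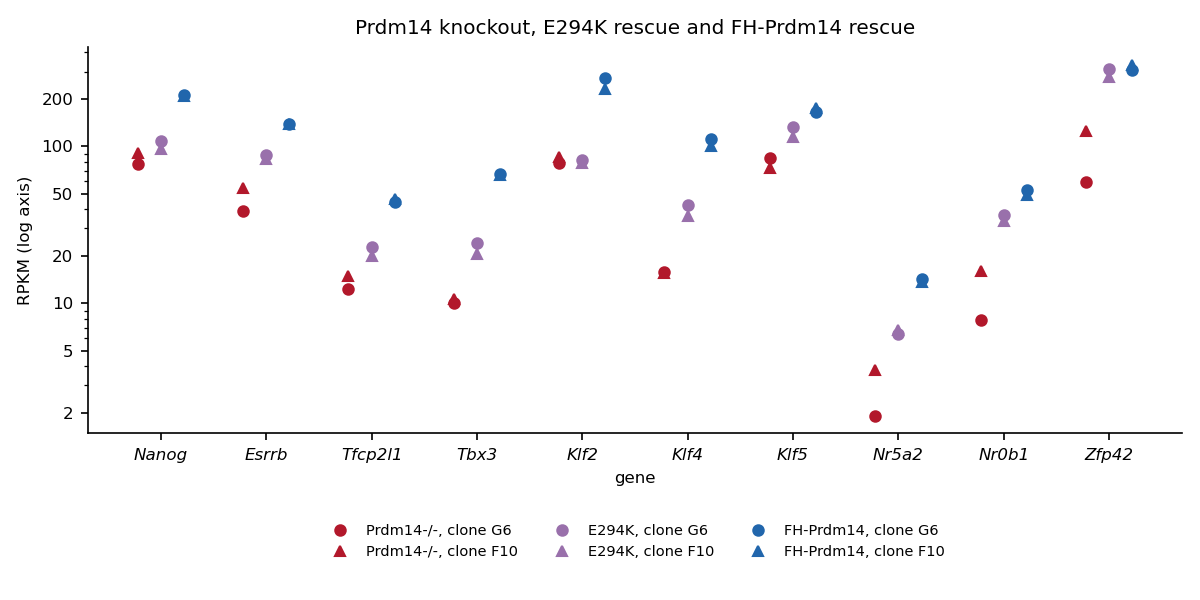
Level in RPKM (log axis) of each member in Prdm14-/- (red), E294K (purple) and FH-Prdm14 (blue), with clone G6 as circles and F10 as triangles. The E294K points fall on the knockout points for Klf2 (78.3 and 82.4 RPKM) and among the FH-Prdm14 points for Zfp42 (278 and 313 RPKM), and between the groups for the rest.

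GC content moved with several comparisons, those of the E294K lines among them. Over 12651 genes the log2 difference of E294K correlated with transcript GC content at a Spearman's rho of -0.39 against FH-Prdm14 and -0.42 against the knockout. The rho was 0.36 for 2i+LIF against serum+LIF, 0.28 for FH-Prdm14 against FH-Mtgr1 and -0.27 for Mtgr1-/- against Prdm14-/-. Against wt serum+LIF it was 0.51 for Prdm14-/-, 0.25 for FH-Mtgr1 and 0.24 for Mtgr1-/-. In the remaining comparisons it ran from 0.03 to 0.11. These values are a description across genes, which are not independent. Klf2 (61.6% GC) and Klf5 (60.3%) were well above the median of all genes tested (51.1%), whereas Nr5a2 (43.9%) and Nanog (45.8%) were below it. After adjustment for GC content Klf2 differed from FH-Prdm14 by -1.10 (adjusted p = 0.0659) and from the knockout by 0.68 (adjusted p = 0.201), and Klf5 from FH-Prdm14 by 0.02 (adjusted p = 0.947). Esrrb no longer passed against FH-Prdm14 (-0.47, adjusted p = 0.0686). For Klf2, Klf5, Esrrb and Nr5a2 the distance of E294K from FH-Prdm14 thus depended on the adjustment.

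The culture medium was read in wt cells. Nanog, Tfcp2l1 and Nr5a2 were higher in 2i+LIF than in serum+LIF. The 3 members called stand beside 9.28% of all genes called higher and 22.9% in either direction, and the median log2 difference was 0.76 over the members and -0.10 over all genes. The serum+LIF condition was a single library, so that its comparisons borrow the spread of the others, and with only these 3 wt libraries in the fit no gene passed.

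Nr5a2 was at 4.62 RPKM in serum+LIF and at 24.7 and 14.0 RPKM in 2i+LIF libraries 1 and 2, which gave the largest difference (1.90 ± 0.43, adjusted p = 0.00901). Tfcp2l1 was at 18.3 RPKM against 79.8 and 41.9 RPKM (1.63 ± 0.37, adjusted p = 0.00928), and Nanog at 91.2 RPKM against 285 and 133 RPKM (1.09 ± 0.33, adjusted p = 0.0328). Both 2i+LIF libraries lay above serum+LIF for these genes. Esrrb was at 92.2 RPKM against 147 and 111 RPKM, Tbx3 at 16.9 RPKM against 86.5 and 25.5 RPKM, Klf5 at 90.1 RPKM against 148 and 101 RPKM, and Zfp42 at 184 RPKM against 373 and 212 RPKM. None of these 4 passed, although neither library was under serum+LIF. Klf4 was at 28.0 RPKM against 97.6 and 28.9 RPKM. Klf2 (112 RPKM against 288 and 97.7 RPKM) and Nr0b1 (28.6 RPKM against 53.7 and 14.2 RPKM) had the serum+LIF value between those of the 2i+LIF libraries.

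The 2i+LIF libraries differed from each other in the members more than in most genes. All 10 were higher in library 1, from 1.33-fold for Esrrb to 3.79-fold for Nr0b1, with a median log2 difference of 1.01, where the median over all genes was 0.14 and 60.4% of genes were higher. No other pair of libraries of a condition had a median among the members beyond 0.28 in size. Which of them stands for the medium decides the comparison. Without library 2, 6 members passed as higher than serum+LIF, and without library 1, 2 did. Fibroblast markers, of 5 genes, summed to 2.06 and 2.47 RPKM in 2i+LIF and to between 12.2 and 27.4 RPKM in all libraries in serum+LIF. In wt cells 2 of the 5 were at 0 in each medium, and 2 were at 1 RPKM or more in serum+LIF. Of the 3 tested between the media, 1 passed, Thy1, as lower in 2i+LIF (-2.67 ± 0.215, adjusted p = 1.69e-05). The part of these markers was not tested.

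FH-Prdm14 lines in serum+LIF were set against wt cells in 2i+LIF. No member passed the test in limma or in voom, where 23.5% of all genes did in limma. Klf5 came nearest after Klf4 (0.48 ± 0.20, adjusted p = 0.108). Klf4 had the largest difference (0.99 ± 0.38, adjusted p = 0.0821), and Nr5a2 and Tfcp2l1 were the members with a higher mean in 2i+LIF (-0.40 ± 0.35 and -0.35 ± 0.30). With SEs of 0.19 to 0.57 (log2), these tests do not show that the levels were alike. For 8 of the 10 genes the groups overlapped, and for Klf4 and Klf5 both FH-Prdm14 lines lay above both 2i+LIF libraries, as for 36.0% of all genes. Without 2i+LIF library 1 the log2 difference was 0.66 for Nanog, 1.36 for Tbx3, 1.36 for Klf2 and 1.81 for Nr0b1. Without library 2 it was -0.43, -0.38, -0.20 and -0.074.

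Set against FH-Mtgr1, in the same medium, FH-Prdm14 lines were higher for all 10 members, where 26.2% of all genes were higher and 41.6% differed. Every FH-Prdm14 line lay above every FH-Mtgr1 line, which was so for 42.2% of all genes. Klf4 was 14.4-fold higher (3.76 ± 0.35, adjusted p = 1.61e-05), Nr5a2 11.7-fold (3.10 ± 0.32, adjusted p = 3.32e-05) and Klf2 7.13-fold (2.95 ± 0.44, adjusted p = 0.000352). The smallest difference was that of Tbx3, at 3.14-fold (1.70 ± 0.40, adjusted p = 0.00526). All 10 calls held without any of the 5 libraries.

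The wt serum+LIF library was the common reference for the knockouts and the Mtgr1 rescue, so that these comparisons share its error. Mtgr1-/- lines were lower for 9 members, all but Klf5, where 22.1% of all genes were lower and 37.0% differed. Esrrb was 6.48-fold lower (-2.66 ± 0.22, adjusted p = 2.06e-05) and Nr0b1 5.85-fold lower (-2.47 ± 0.66, adjusted p = 0.012). Prdm14-/- lines had a lower mean for all 10, but only Esrrb passed, at 1.97-fold lower (-0.99 ± 0.23, adjusted p = 0.0128), where 13.7% of all genes were lower and 25.4% differed. Here the log2 difference correlated with GC content at a rho of 0.51 across genes. Esrrb did not pass without the G6 library or with only these conditions in the fit.

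FH-Mtgr1 lines had a lower mean than the single wt serum+LIF library for 9 members, and 2 passed the test. Esrrb (2.77-fold lower, -1.46 ± 0.22, adjusted p = 0.0165) and Klf4 (3.80-fold lower, -1.86 ± 0.44, adjusted p = 0.0475) passed, where 1.71% of all genes were lower and 2.74% differed. Tbx3 was the member whose mean was not lower, at 21.1 ± 8.78 RPKM (SD, n = 3) against 16.9 RPKM. Nr0b1 (-2.07 ± 0.66, adjusted p = 0.103), Klf2 (-1.80 ± 0.56, adjusted p = 0.0951) and Nr5a2 (-1.60 ± 0.41, adjusted p = 0.0559) did not pass. The call on Klf4 was lost under 6 of 11 alternatives, without any of the 3 rescue lines among them, and that on Esrrb under 2. The number of members called ran from 0 to 7 over the alternatives, with 0 when the A3 rescue was left out and 7 when both 2i+LIF libraries were.

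Clone C3 of FH-Mtgr1 stood apart from A3 and C1 in the members. It was lower for Klf2 by 1.58 and 1.20 (log2) and higher for Nr0b1 by 1.40 against each, and it had the highest Tbx3, Tfcp2l1, Esrrb and Klf5 of the 3 lines. The median size of the difference from A3 was 0.36 over the members and 0.24 over all genes.

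**Figure D4:**
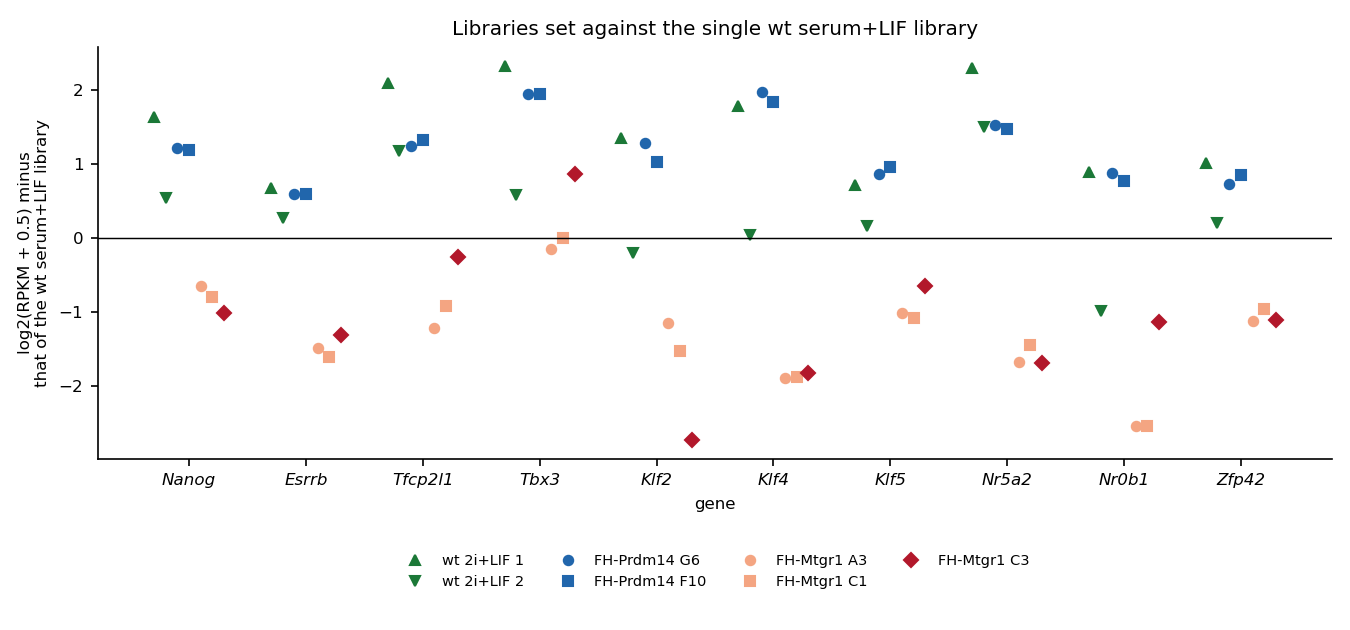
Each point is the log2(RPKM + 0.5) of 1 library minus that of the single wt serum+LIF library, for each gene. Triangles (green) are wt 2i+LIF, blue points FH-Prdm14, and orange points and red diamonds FH-Mtgr1. FH-Prdm14 lies above 0 for every gene, the 2i+LIF libraries lie apart from each other, and the red diamonds of FH-Mtgr1 C3 leave the other lines at Klf2, Tbx3, Tfcp2l1 and Nr0b1.

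The makeup of the related Klf factors shifted between conditions. Their summed level was 230 RPKM in wt serum+LIF, 534 and 227 RPKM in 2i+LIF, 507 and 549 RPKM in FH-Prdm14, 229 and 258 RPKM in E294K, and 174 and 178 RPKM in Prdm14-/-. Mtgr1-/- lines had 120 to 156 RPKM and FH-Mtgr1 lines 81.7 to 102 RPKM. Klf5 made up 71.1 to 74.2% of the sum in Mtgr1-/-, more than in any other library. FH-Mtgr1 C3 came next at 70.3%, while A3 and C1 of FH-Mtgr1 were at 43.4 and 48.0% and wt serum+LIF at 39.1%. Klf4 had its largest share in FH-Prdm14, at 19.9 and 20.2%, and its smallest in Mtgr1-/-, at 4.65 to 5.22%. The shares are of RPKM and so per length of transcript, not of protein.

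**Figure D5:**
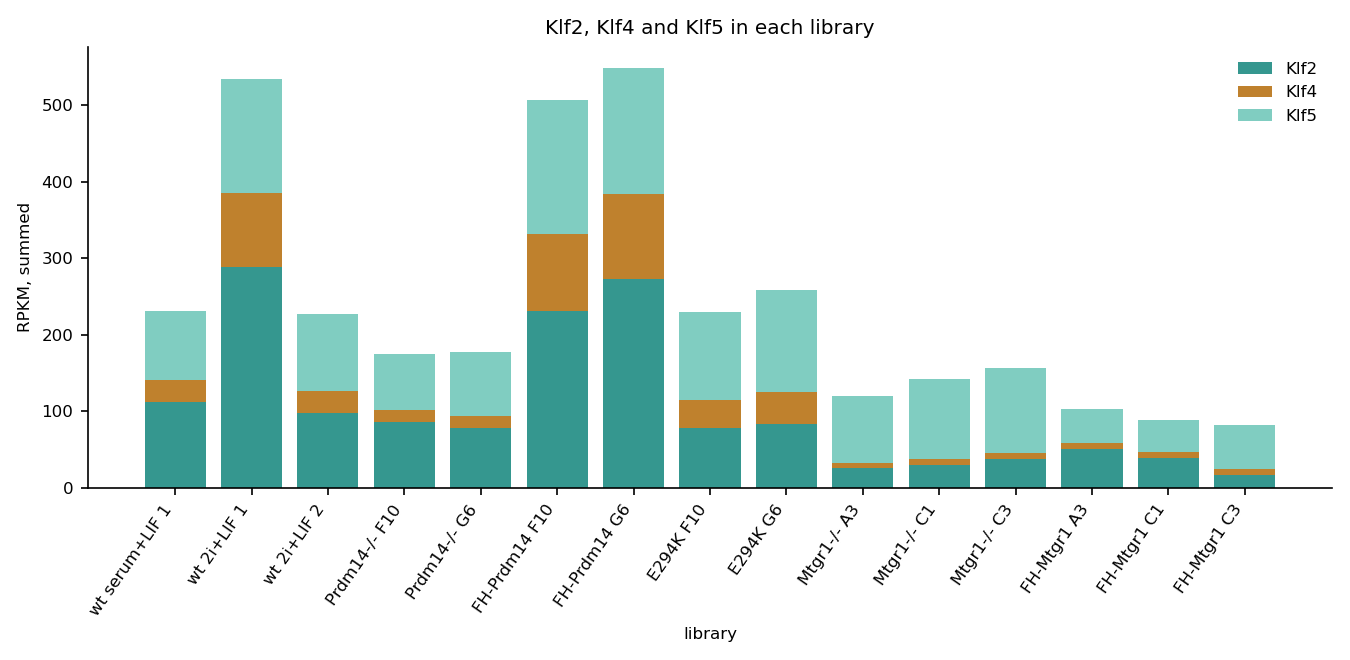
Summed RPKM of Klf2 (dark green), Klf4 (brown) and Klf5 (light green) in each library, stacked from 0. The sum is highest in FH-Prdm14 and in 2i+LIF library 1 (507 to 549 RPKM), and Klf5 makes up over 70% of it in the 3 Mtgr1-/- libraries and in FH-Mtgr1 C3.

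Ordered by mean, neighbouring conditions often did not differ. For Nanog the order ran FH-Prdm14, wt 2i+LIF, E294K, wt serum+LIF, Prdm14-/-, FH-Mtgr1 and Mtgr1-/-, and the steps that passed were those from 2i+LIF to E294K (0.93 ± 0.27, adjusted p = 0.0206), from Prdm14-/- to FH-Mtgr1 (0.69 ± 0.25, adjusted p = 0.0408) and from FH-Mtgr1 to Mtgr1-/-. For Esrrb the steps that passed were from E294K to Prdm14-/-, from there to FH-Mtgr1 (0.47 ± 0.18, adjusted p = 0.0494), and on to Mtgr1-/-. Klf5 had 1 step past the threshold, the last, from Prdm14-/- to FH-Mtgr1 (0.71 ± 0.18, adjusted p = 0.0112). No step passed for Nr0b1, Zfp42 or Nr5a2. Of the 21 pairs of conditions, Esrrb differed in 17 and Nanog in 16, and Nr0b1 in 9. As the order is read from the same values, these steps are a description.

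The members moved together across libraries to a differing degree. Over the 15 libraries, the 45 pairs of members had correlations of log2 level between 0.36 (Tbx3 with Klf5) and 0.96, with a median of 0.87, and the points share the conditions and the libraries. When each condition's mean was taken off, which leaves 14 libraries, the range was -0.02 to 0.98 and the median 0.48, with Nr5a2 and Zfp42 the closest pair. The genes most like each member by correlation over the 15 libraries, among 8580 genes with enough signal, were Glb1 for Nanog (0.976), Plxdc1 for Esrrb (0.984), Fam81a for Tfcp2l1 (0.979), Mllt6 for Tbx3 (0.976), Arhgap44 for Klf2 (0.978), Slc29a1 for Klf4 (0.982), Cluh for Klf5 (0.957), Gli2 for Nr5a2 (0.990), Bdh1 for Nr0b1 (0.956) and Snx10 for Zfp42 (0.966). For the mean of the members the closest were Sod2 (0.988) and Slc29a1 (0.984).

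Other genes of the network were read by list, beside the share of all genes called. Of 14 further naive genes, 10 passed as lower in Prdm14-/- against FH-Prdm14, where 13.8% of all genes did, and none as higher, where 11.4% did. Their median was -1.43, and that of all genes -0.09. Tcl1, a kinase coactivator of mESCs, had the largest difference (-1.97 ± 0.27, adjusted p = 0.000329). In Mtgr1-/- against FH-Mtgr1, 7 of the 14 were lower and 2 higher (median -0.52), where 26.1% of all genes were lower and 26.2% higher. In E294K against FH-Prdm14, 1 of the 14 passed as lower, Tcl1 (-1.53 ± 0.27, adjusted p = 0.00256), beside 13.2% of all genes. Against the knockout 7 were higher, beside 15.1% of all genes, Tet2 the most (2.32 ± 0.40, adjusted p = 0.00174).

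Of 6 core factors, 2 were lower and 2 higher in Prdm14-/- against FH-Prdm14, where 25.2% of all genes differed, and Pou5f1, the central factor of pluripotency, had the largest difference (-0.94 ± 0.15, adjusted p = 0.000751). In Mtgr1-/- against FH-Mtgr1, 2 of the 6 were higher, a share near the 26.2% of all genes, and none lower, with Sall4 at 0.79 ± 0.14 (adjusted p = 0.00058).

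Of 11 genes that feed the network (LIF receptor and Stat3, Tcf7l1, and BMP targets), 6 were higher in Mtgr1-/- than in its rescue and none lower. Of all genes 26.2% were higher and 26.1% lower. The share called in either direction was near the 52.3% of all genes, but among the list it lay on the higher side only. Id3 had the largest difference (2.08 ± 0.72, adjusted p = 0.0283). In Prdm14-/- against its rescue 3 were higher and 2 lower, where 11.4% of all genes were higher and 13.8% lower. Id1, a target of BMP signals, had the largest difference there (2.14 ± 0.43, adjusted p = 0.00322). The median was 0.10 over the list and -0.09 over all genes. Tcf7l1 and Stat3 are given for their links to members, not for the size of their change. Tcf7l1 was at 37.1 and 55.6 RPKM in Prdm14-/- and at 17.3 and 20.3 RPKM in FH-Prdm14. Stat3 was at 14.4 RPKM in both knockout lines and 27.0 RPKM in both rescue lines. In Mtgr1-/- against its rescue neither Stat3 nor any other gene of the list passed as lower. The part of either gene in the levels of the members was not tested.

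Of 9 genes of the formative epiblast, the state that follows the naive one, 5 were higher and 1 lower in Mtgr1-/- (median 1.39), where 26.2% of all genes were higher and 26.1% lower. In Prdm14-/- 6 were higher and 2 lower (median 1.36), where 11.4% of all genes were higher and 13.8% lower, led by Fgf5 (3.78 ± 0.20, adjusted p = 8.6e-07). In E294K against FH-Prdm14, 5 of the 9 were higher and none lower, where 6.35% of all genes were higher, Dnmt3b the most (3.26 ± 0.35, adjusted p = 9.93e-05).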

How the data were processed

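RNA was extracted with Trizol and oligo-dT purified, and libraries were sequenced on Illumina instruments. The methods name a NextSeq or a HiSeq, with single-end reads of different length. Which library was run on which is not given in the sources used here. An effect of the instrument therefore cannot be told apart from one of the condition. The authors used Tophat and mm9 for alignment, HTSeq to count reads per RefSeq gene and DESeq2 to test those counts, and deposited RPKM values for 24015 genes in 15 libraries; tool versions are not given in the sources used here. Multiplied by gene length, 100.0% of the deposited RPKM values were within 0.01 of a whole multiple of 1 read, from which the depth (10668572 to 21218414 reads on genes) was computed back.

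Since the deposited values are not counts, log2(RPKM + 0.5) was tested in R 4.3.3 with a linear model of limma 3.58.1, its variances shrunk to a trend over level (eBayes). The 13477 genes with 1 RPKM or more in 2 or more libraries were fitted together, with a mean for each condition and the Benjamini-Hochberg adjustment over all of them (threshold 0.05). The pseudocount of 0.5 understates changes of low genes. The wt serum+LIF condition had 1 library, whose spread was taken from the others. Libraries of a condition differed by more than sampling noise, and each was counted as a sample. Clones tie knockout and rescue lines by the labels. The correlation of same-clone deviations was 0.063, -0.182 and 0.028 for Mtgr1 clones A3, C1 and C3, 0.299 for the Prdm14 knockout and FH-Prdm14, 0.08 for E294K and FH-Prdm14, and 0.04 for E294K and the knockout.

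Alternatives were pseudocounts of 0.1 and 1, no filter, median-of-ratios scaling, voom on the reads computed back, only the compared conditions, the clone as a block, and leaving out each library. Leaving out both 2i+LIF libraries and an adjustment for GC content (lowess, span 0.3, 12651 genes) were added after the data were seen. The members, lists, markers, motifs and tests were chosen with earlier results of these data known. From the lists, a gene is named when its change is the largest of its list, or beside a member it acts on. Positions came from NCBIM37 and promoters from RefSeq (GRCm38.p6). Python 3.11.15 with pandas 2.3.3 and matplotlib 3.10.9 served for the rest. ChIP-seq samples and protein sequences were not used here.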

Additional observations from a re-analysis of the deposited data

Results flagged for a closer look

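For 4 members the effect of the Mtgr1 knockout differed from that of the Prdm14 knockout by a test of the difference itself (limma, each knockout against the rescue of its own clones). The Mtgr1 effect minus the Prdm14 effect was 2.60 (log2) for Klf4, 2.37 for Nr5a2, 2.20 for Klf5 and 1.63 for Zfp42. For Klf5 the effects had opposite signs, 1.08 for Mtgr1 and -1.12 for Prdm14. Against the single wt serum+LIF library, at 90.1 RPKM, Klf5 passed in neither knockout in the main fit. The differences were 0.17 ± 0.23 (adjusted p = 0.604) for Mtgr1-/- and -0.21 ± 0.25 (adjusted p = 0.55) for Prdm14-/-. After adjustment for GC content Prdm14-/- passed as lower (-0.83, adjusted p = 0.0155). The rescue lines lay on either side of wt, with Klf5 means of 48.1 RPKM in FH-Mtgr1 and 170 RPKM in FH-Prdm14. For Klf4 the effects were -0.12 and -2.72, for Nr5a2 0.20 and -2.17, and for Zfp42 -0.25 and -1.88. Klf4, Klf5 and Nr5a2 passed under every alternative run. Zfp42 passed under 11 of 19 alternatives, with adjusted p between 0.0054 and 0.146, and was lost with no filter and when any of 7 single libraries (the G6 knockout, both FH-Prdm14, Mtgr1-/- A3 and C1, and FH-Mtgr1 A3 and C3) was left out. What sets these members apart was not tested, and the rescue lines themselves differ, with Klf4 at 101 and 111 RPKM in FH-Prdm14 and at 7.24 to 7.61 RPKM in FH-Mtgr1.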

How the results depend on the processing

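For single members, 1322 values under an alternative kept their direction and side of the threshold, 114 lost the call, 46 gained it and 28 changed sign; the cause was not tested. The number of members past the threshold stayed within 1.5 times its value in 125 of 156 cases. With no filter it was 0 for E294K against FH-Prdm14 (6), 2 for E294K against Prdm14-/- (6), 3 for Mtgr1-/- against Prdm14-/- (6), 5 for Mtgr1-/- against wt serum+LIF (9) and 1 for FH-Mtgr1 against wt serum+LIF (2). In fits of the compared conditions alone it was 0 for each of 2i+LIF, Prdm14-/- and FH-Mtgr1 against wt serum+LIF, where few libraries were left. For FH-Mtgr1 against wt serum+LIF it was 1 with median-of-ratios scaling, 4 in voom, 5 after GC adjustment and 7 without the 2i+LIF libraries. For Prdm14-/- against wt serum+LIF (1) it was 2 after GC adjustment and 2 without the 2i+LIF libraries.

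The replicate block by clone moved the count to 3 for E294K against FH-Prdm14 and to 4 for E294K against Prdm14-/-, where Klf4 (adjusted p = 0.0560) and Nr0b1 (0.0628) were lost. It was 9 for Prdm14-/- against FH-Prdm14, 5 for Mtgr1-/- against FH-Mtgr1 and 4 for the difference of the knockout effects, and beside these and the losses named in the report the block changed no call on a member. Leaving out single libraries (a lone sample is then assumed to vary like the other groups) gave 0 for E294K against FH-Prdm14, 0 to 4 for E294K against Prdm14-/-, 3 to 6 for Mtgr1-/- against Prdm14-/-, 2 to 6 for 2i+LIF against serum+LIF, 0 to 6 for FH-Prdm14 against 2i+LIF, 0 to 2 for Prdm14-/- and 0 to 1 for FH-Mtgr1 against wt serum+LIF. It gave 7 to 9 for Prdm14-/- against FH-Prdm14.

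Most changes of sign came with single libraries left out, in members that had not passed. In Mtgr1-/- against FH-Mtgr1 the log2 difference then ran from -0.52 to 0.27 for Klf2, -0.18 to 0.011 for Klf4, -0.039 to 0.50 for Nr5a2, -0.63 to 0.069 for Nr0b1 and -0.53 to 0.10 for Zfp42. Klf2 ran from -0.096 to 0.038 in E294K against Prdm14-/-, Zfp42 from -0.77 to 0.32 in Mtgr1-/- against Prdm14-/-, and Tbx3 from -0.068 to 0.44 in FH-Mtgr1 against wt serum+LIF. In 2i+LIF against serum+LIF, Klf2 ran from -0.20 to 1.35 and Nr0b1 from -0.99 to 0.90. In FH-Prdm14 against 2i+LIF the ranges were -0.43 to 0.66 for Nanog, -0.079 to 0.33 for Esrrb, -0.81 to 0.11 for Tfcp2l1, -0.38 to 1.36 for Tbx3, -0.20 to 1.36 for Klf2, -0.074 to 1.81 for Nr0b1 and -0.22 to 0.59 for Zfp42. GC adjustment gave 0.021 for Klf5 in E294K against FH-Prdm14, 0.68 for Klf2 in E294K against Prdm14-/-, -0.0059 for Esrrb in FH-Prdm14 against 2i+LIF, -0.061 for Klf5 in Mtgr1-/- and 0.21 for Nanog in Prdm14-/- against wt serum+LIF.

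Median-of-ratios scaling moved all genes by up to 0.15 (log2, Mtgr1-/- against wt serum+LIF), and with it Nr0b1 was at 0.086 in 2i+LIF against serum+LIF and Nanog at -0.011 in FH-Prdm14 against 2i+LIF. The percentage of all calls that were higher moved from 40.6 to 53.4 for 2i+LIF, 40.2 to 52.0 for Mtgr1-/- and 37.7 to 55.3 for FH-Mtgr1 against wt serum+LIF, and from 66.0 to 53.9 and 63.1 to 52.6 for FH-Prdm14 against 2i+LIF and FH-Mtgr1. Over all genes, a fit of the compared conditions alone called 7214 for E294K against FH-Prdm14 (2633), 0 for 2i+LIF (3084) and 625 for Prdm14-/- (3423) against wt serum+LIF, 626 for FH-Prdm14 against 2i+LIF (3163) and 0 for FH-Mtgr1 against wt serum+LIF (369), which had 639 in voom and 1275 without the 2i+LIF libraries. Leaving out a library gave 1679 to 3099 for Prdm14-/- against FH-Prdm14 (3390), 869 to 1142 for E294K against FH-Prdm14, 1515 to 3970 for E294K against Prdm14-/- (4435), 2995 to 5310 for Mtgr1-/- against Prdm14-/- (4776), 1395 to 5025 for FH-Prdm14 against 2i+LIF, 2844 to 4845 for FH-Prdm14 against FH-Mtgr1 (5600), 926 to 3382 for Prdm14-/- and 18 to 184 for FH-Mtgr1 against wt serum+LIF, and 2611 to 4440 for the difference of the knockout effects (4238). The single wt serum+LIF library could not be left out. Nr5a2, at 0.778 RPKM in its lowest library, is the member that depth limits most.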
